A study of Schizosaccharomyces pombe with 6 samples.

Results

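The genes described here are those of secretory and endosomal traffic in fission yeast (Schizosaccharomyces pombe). They are the probe sets whose single gene symbol in the platform annotation starts with vps, sec, ypt, bet, trs, apl, apm, aps, cop or sft followed by a digit. This gave 96 probe sets, each for a different gene, of 10928 on the array and of 2936 with an S. pombe gene. The choice used the name alone, so 3 of the 96 are known for other work: vps71 encodes a subunit of the Swr1 chromatin remodeller, aps1 a hydrolase of dinucleotide polyphosphates and trs1 a threonyl-tRNA ligase. The annotation names vps1301 and muk1 by their older symbols vps13a and vps902.

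Cells were grown in rich medium (YEL) to mid-log phase, and their total RNA was hybridised to Affymetrix expression arrays. There were 3 groups of 2 arrays: fkh2delta (strain CG 116), which lacks the forkhead transcription factor gene fkh2, fkh2-S2A (strain CG 209), which carries a mutant fkh2 allele that the labels do not describe further, and wild type (strain CG 209). The strain name of fkh2delta differs from that of its comparators, so loss of fkh2 and strain background cannot be told apart. The labels leave unsaid whether both arrays of a group are separate cultures; the p-values therefore reflect array-to-array spread, possibly technical only. The arrays read RNA of a whole culture, so a change in the mix of cells and a change in RNA per cell cannot be told apart.

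In background terms, proteins enter the secretory pathway through the Sec61 channel of the endoplasmic reticulum (ER). COPII-coated vesicles carry them to the Golgi and COPI-coated vesicles carry material back. Rab GTPases and tethers such as TRAPP, the exocyst, GARP and HOPS bring vesicles to their targets, where SNARE proteins fuse the membranes. Clathrin adaptors, the ESCRT complexes and retromer sort cargo at endosomes. In fission yeast these routes feed growth at the cell tips and the building of the septum.

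Values are log2 signals as deposited, and a change is the log2 difference between group means ± its standard error (SE) in limma's fit, with n = 2 arrays per group. Below, a pair of values for a group is the log2 signal on its replicates 1 and 2, and a value with ± is a change. "Rose" and "fell" are used of an adjusted p below 0.05 (limma, Benjamini-Hochberg over all 2936 probe sets). The signal of fkh2 was 4.34 and 4.05 in fkh2delta, 7.47 and 7.76 in fkh2-S2A and 7.53 and 7.39 in wild type. The fkh2delta values lay below the background level of those arrays, 5.18 and 5.17, and no value in the table tells fkh2-S2A from wild type independently of its label. The uracil synthesis gene ura4, a common marker in laboratory strains, read 5.40 and 6.17 in fkh2delta, 12.83 and 12.85 in fkh2-S2A and 12.79 and 12.56 in wild type. Of the 96 members, 95 were above background on all 6 arrays. The exception was trs31, which was not above background in fkh2-S2A or wild type.

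In the strain lacking fkh2, traffic genes moved in both directions, with counts that differed between roles. Among the members, most coat genes of COPII (5 of 6) and COPI (3 of 4) vesicles fell. All 4 exocyst members and most of those of ESCRT (6 of 7), TRAPP (5 of 8) and retromer (4 of 5) rose. Of the 96 members 51 rose (53.1%), against 40.4% of all tested probe sets, and 20 fell (20.8%), against 23.6% of all. The median change of the members was 0.29, against 0.16 over all probe sets. With each array centred on its median, the members' split was 38 higher and 23 lower, beside 979 and 908 over all 2936 probe sets. With quantile normalization over the tested probe sets it was 36 and 22, beside 965 and 893. As fitted, 1186 of all rose and 693 fell. The medians over all probe sets were 0.033 with centring and 0.028 with quantile normalization. Each change below is thus to be read against a shift of 0.16 over all tested probe sets. Counts by role for fkh2delta below are to be read beside the 40.4% that rose and 23.6% that fell over all probe sets. Without fkh2delta replicate 2 both counts were lower, for the members and over all probe sets. Of the 71 calls, 43 held under all 17 other settings (29 rises and 14 falls). As a sign of RNA quality, the signal at the 3′ end of 6 control genes exceeded that at the 5′ end by a mean log2 of 1.53 and 1.61 in fkh2delta, 1.35 and 1.24 in fkh2-S2A and 1.27 and 1.27 in wild type. Its part in these changes was not tested.

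**Figure D1:**
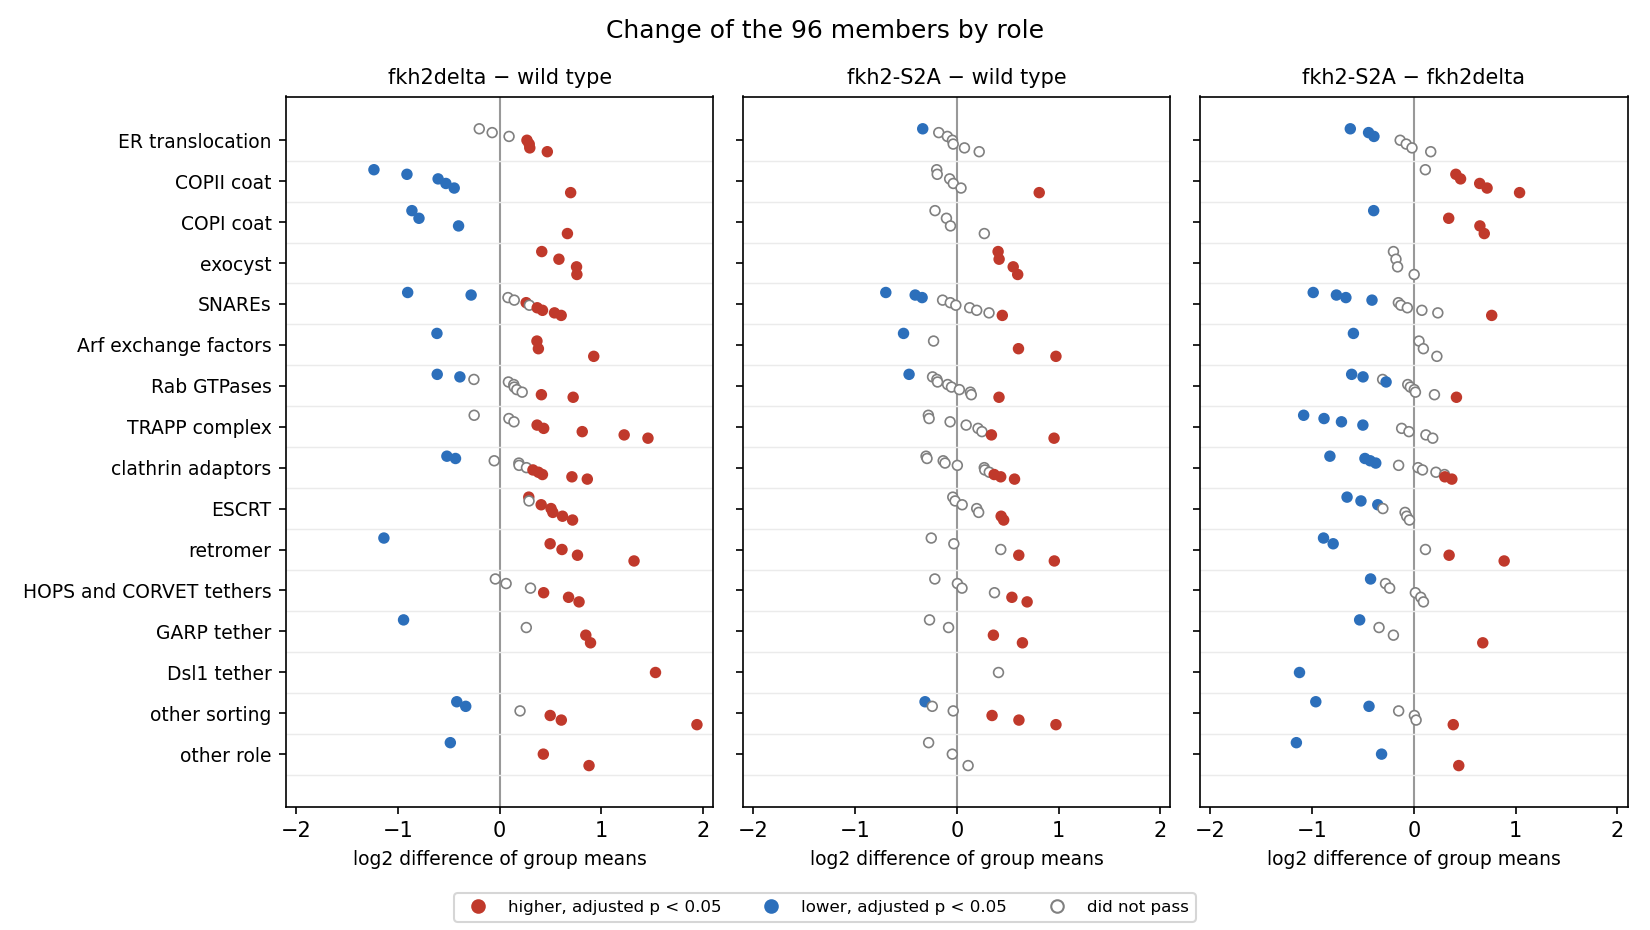
Each point is 1 of the 96 members, placed by its log2 difference between group means (x axis) and grouped by role (y axis), for fkh2delta minus wild type, fkh2-S2A minus wild type and fkh2-S2A minus fkh2delta. Filled red points were higher and filled blue points lower at an adjusted p below 0.05, and open points did not pass; 5 of 6 COPII points are blue in the left panel and 0 of 6 in the middle panel.

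Genes of the COPII coat, which forms vesicles at the ER, fell in fkh2delta with 1 exception. Of 6 members 5 fell, under all 17 other settings as well. The deepest fall was sec31, for an outer coat subunit, with 8.42 and 7.99 in fkh2delta and 9.25 and 9.64 in wild type. Both fkh2delta arrays lay below both wild-type arrays, a change of -1.24 ± 0.17 (adjusted p = 0.000296). The other falls were sec2302 (-0.91 ± 0.099) and sec231 (-0.53 ± 0.095), for the pair of Sec23 proteins of the inner coat, sec24 (-0.45 ± 0.092), for the subunit that binds cargo, and sec13 (-0.61 ± 0.11), for an outer coat protein that also serves in the nuclear pore. The gene that rose was sec16 (0.70 ± 0.12), whose product is a scaffold of ER exit sites rather than a coat subunit. It had 7.74 and 8.0 in fkh2delta and 7.17 and 7.18 in wild type, and its call was lost with quantile normalization over the tested probe sets (0.25).

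The COPI coat, which returns material from the Golgi to the ER, followed the same division. Of 4 members sec21 (-0.86 ± 0.12), sec26 (-0.79 ± 0.092) and sec27 (-0.40 ± 0.091) fell and sec28 (0.67 ± 0.11) rose, again under all 17 other settings. These genes encode the gamma, beta, beta-prime and epsilon subunits. Outside the naming pattern, the COPI genes ret2 (0.083 ± 0.14) and ret3 (0.090 ± 0.10) did not pass. For sec26, a gene picked out after its values were seen, the signal was 11.77 and 11.80 in fkh2delta and 12.56 and 12.59 in wild type, so the replicates of a group differed far less than the groups did. Its adjusted p was 0.000114.

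**Figure D2:**
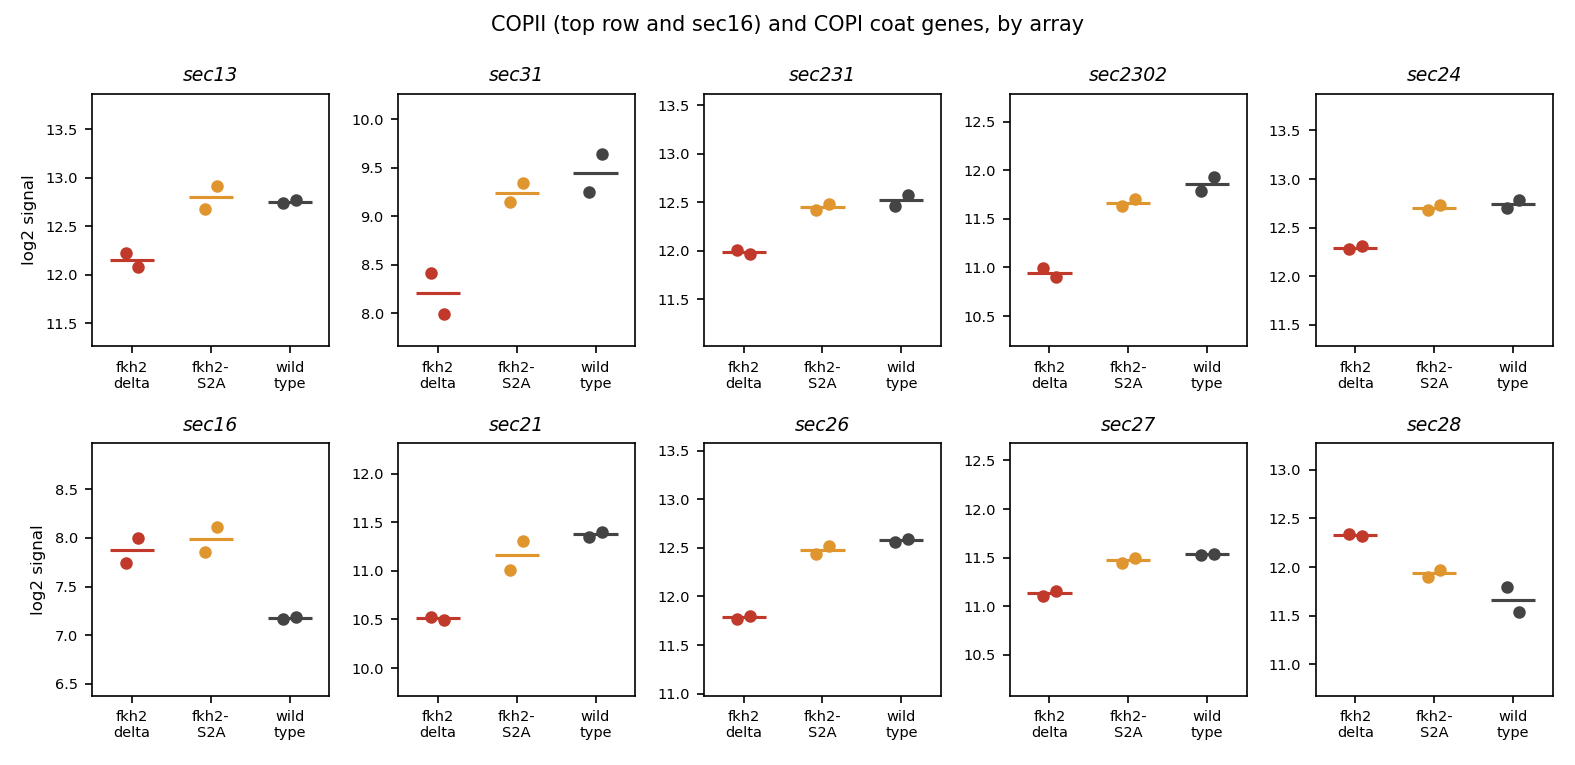
Log2 signal (y axis, with the same span in every panel) of the 10 COPII and COPI members on each array, with fkh2delta, fkh2-S2A and wild type from left to right; points are arrays and bars are group means. For the genes that fell in fkh2delta, both fkh2delta points lie below all the others. For sec16 and sec28, which rose, the fkh2delta points lie above the wild-type points.

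SNARE genes and their regulators were divided as well: of 10 members 5 rose and 2 fell, against 40.4% and 23.6% of all probe sets. The deepest fall was sec18 (-0.90 ± 0.15), for the ATPase NSF that takes spent SNARE complexes apart, with 10.84 and 10.71 in fkh2delta and 11.66 and 11.70 in wild type. Its partner sec17, for alpha-SNAP, rose (0.54 ± 0.11). The SNARE genes sec22 (0.60 ± 0.12) and sft1 (0.42 ± 0.091) rose, as did the Sec1/Munc18 family genes sec1 (0.37 ± 0.13) and vps45 (0.26 ± 0.096), with the sec1 call lost in 7 and the vps45 call in 10 of 17 other settings. The Golgi membrane protein gene sft2 fell (-0.28 ± 0.10, lost in 5 of 17 other settings). The SNARE genes bet1 (0.29 ± 0.14), sec9 (0.081 ± 0.13) and sec20 (0.14 ± 0.095) did not pass.

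Genes of several tethers were higher in fkh2delta. The highest was sec39, for a subunit of the Dsl1 tether known in budding yeast to receive vesicles at the ER. Its signal was 9.71 and 10.05 in fkh2delta and 8.33 and 8.38 in wild type, a change of 1.53 ± 0.16 (adjusted p = 8.03e-05). All 4 exocyst members rose, sec10 (0.76 ± 0.12), sec8 (0.76 ± 0.16), sec6 (0.58 ± 0.11) and sec15 (0.41 ± 0.11), with the sec15 call lost in 4 of 17 other settings. So did exo70 (0.86 ± 0.14), an exocyst gene outside the naming pattern. The exocyst tethers vesicles to the plasma membrane.

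The TRAPP complex tethers vesicles at the Golgi and activates Rab GTPases, and 5 of its 8 genes rose. The gene trs130, for a subunit of the TRAPPII form, had 10.01 and 10.23 in fkh2delta and 8.83 and 8.50 in wild type, a change of 1.46 ± 0.13 (adjusted p = 3.57e-05). The core subunit gene trs31 had 5.83 and 5.88 in fkh2delta and 4.57 and 4.69 in wild type, with both wild-type arrays below background, and was at least 1.42-fold higher (adjusted p = 1.89e-05). Of the other core genes trs23 rose (0.81 ± 0.098), as did trs20 (0.43 ± 0.14) and bet5 (0.37 ± 0.13), each of the last pair with a call lost in 7 of 17 other settings. The remaining 3, bet3 (-0.25 ± 0.10), trs33 (0.090 ± 0.14) and trs120 (0.14 ± 0.098), did not pass.

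Among the tethers of the endosome and vacuole, HOPS and CORVET, 3 of 6 members rose, against 40.4% of all probe sets. They were vps33 (0.78 ± 0.12), vps41 (0.68 ± 0.12) and vps3 (0.43 ± 0.15, lost in 7 of 17 other settings). The core genes vps11 (-0.043 ± 0.094) and vps16 (0.30 ± 0.16) and the CORVET gene vps8 (0.063 ± 0.10) did not pass.

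In retromer and GARP, subunits of 1 complex moved apart. Retromer returns receptors from endosomes to the Golgi and joins a trimer of Vps26, Vps29 and Vps35 with the sorting nexins Vps5 and Vps17. All 3 trimer genes rose in fkh2delta, and the sorting nexin genes split. The trimer gene vps26 had 10.35 and 10.59 in fkh2delta and 9.24 and 9.05 in wild type, a change of 1.32 ± 0.15 (adjusted p = 9.97e-05). The other trimer genes, vps29 (0.76 ± 0.092) and vps35 (0.50 ± 0.10), rose with the sorting nexin gene vps17 (0.61 ± 0.12). By contrast, vps5 had 8.51 and 8.47 in fkh2delta and 9.56 and 9.70 in wild type, and fell (-1.14 ± 0.12, adjusted p = 7.45e-05). The groups did not overlap for either gene.

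GARP tethers vesicles from endosomes to the Golgi. Of its 4 genes vps51 (0.89 ± 0.095) and vps53 (0.85 ± 0.096) rose, vps52 did not pass (0.26 ± 0.13) and vps54 fell. The vps54 signal was 8.70 and 8.65 in fkh2delta and 9.51 and 9.73 in wild type, a change of -0.95 ± 0.12 (adjusted p = 0.00016). All retromer calls and the 3 GARP calls held under the 17 other settings.

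**Figure D3:**
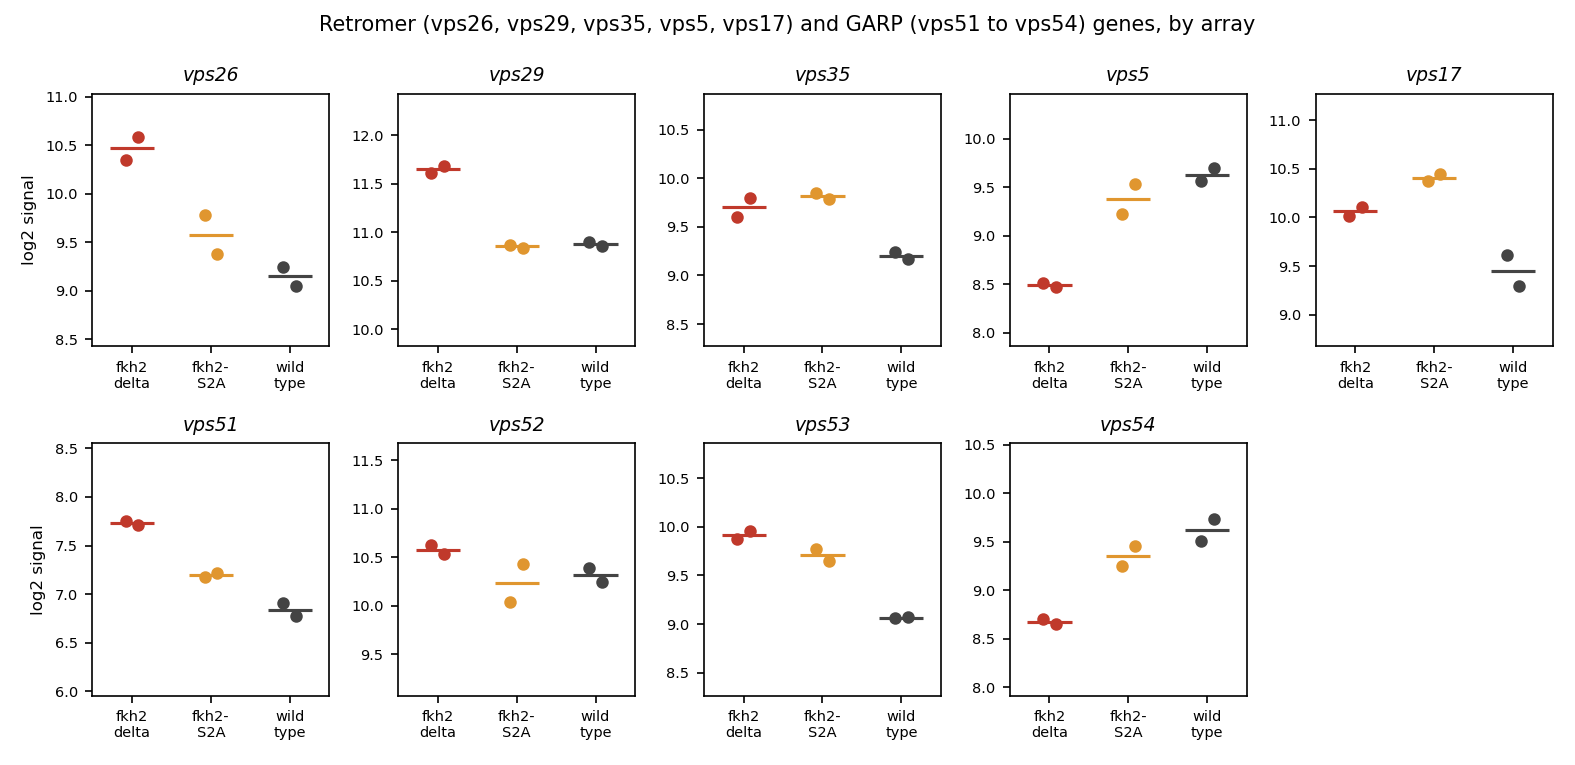
Log2 signal (y axis, with the same span in every panel) of the 5 retromer and 4 GARP members on each array, with fkh2delta, fkh2-S2A and wild type from left to right; points are arrays and bars are group means. The fkh2delta points of vps5 and vps54 lie below all the others, and those of vps26, vps29, vps51 and vps53 above all the others.

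ESCRT genes, whose products sort membrane proteins into the vesicles of multivesicular endosomes, were higher: 6 of 7 rose. Among them were vps28 (0.72 ± 0.093) of ESCRT-I and vps36 (0.29 ± 0.092, lost in 8 of 17 other settings) of ESCRT-II. The filament genes vps24 (0.62 ± 0.14), vps20 (0.52 ± 0.092) and vps32 (0.41 ± 0.11, lost in 2 of 17) rose too. So did vps4 (0.50 ± 0.12), for the ATPase that takes the filament apart. The vps20 call was lost with quantile normalization over the tested probe sets, at 0.14. The ESCRT-II gene vps25 (0.29 ± 0.14) did not pass.

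The highest change of any member was in vps1302, for a Vps13 protein of the family that moves lipids between membranes. It had 10.66 and 10.78 in fkh2delta and 8.80 and 8.77 in wild type, a rise of 1.94 ± 0.11 or 3.83-fold (adjusted p = 2.44e-06). Its paralogue vps1301 rose by less (0.61 ± 0.11), and quantile normalization over the tested probe sets turned that change to -0.081. The dynamin gene vps1 rose (0.50 ± 0.11, lost in 1 of 17 other settings). By contrast, vps10, for the receptor that sorts vacuolar enzymes (-0.42 ± 0.12), and vps66 (-0.33 ± 0.099) fell, each with a call lost in 3. The endosomal membrane protein gene vps55 (0.20 ± 0.095) did not pass.

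The 11 clathrin adaptor members divided without following the 3 adaptor complexes throughout. For AP-2, which acts in endocytosis, apl3 (0.86 ± 0.12), aps2 (0.71 ± 0.12) and apm4 (0.42 ± 0.098) rose and apl1 (0.19 ± 0.11) did not pass. The apm4 call was lost in 2 of 17 other settings. Of AP-1, at the Golgi and endosomes, apl2 rose (0.33 ± 0.12, lost in 8 of 17 other settings), apl4 fell (-0.43 ± 0.13) and apm1 did not pass (-0.054 ± 0.12). The apl4 call was lost in 2 of 17 other settings. In AP-3, on the route to the vacuole, apm3 rose (0.38 ± 0.11, lost in 5 of 17 other settings) and apl6 fell (-0.52 ± 0.14, lost in 2). The AP-3 genes apl5 (0.26 ± 0.11) and aps3 (0.19 ± 0.13) did not pass. The apl4 and apl6 calls were both lost without wild-type replicate 2 and without fkh2delta replicate 1.

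Of the 10 Rab GTPase and exchange factor members 4 passed the test. Among them vps901 (0.72 ± 0.12), for an activator of the endosomal Rab5 type, and ypt71 (0.41 ± 0.12), for a vacuolar Rab, rose. The Rab5 gene ypt5 itself fell (-0.61 ± 0.093), as did the exchange factor gene sec2 (-0.39 ± 0.12). The ypt71 call was lost in 3 and the sec2 call in 2 of 17 other settings. The Rab genes ypt1, ypt2, ypt3, ypt4 and ypt7, with changes from -0.25 to 0.22, and the exchange factor gene muk1 (0.17) did not pass. Of the 4 exchange factors for Arf GTPases with a Sec7 domain, sec71 (0.92 ± 0.11), sec72 (0.38 ± 0.10) and sec73 (0.37 ± 0.13) rose and sec74 fell (-0.62 ± 0.14). The sec72 call was lost in 1 and the sec73 call in 6 of 17 other settings.

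Of the 7 members that act at the entry to the pathway 4 rose, against 40.4% of all probe sets. The channel gene sec61 (-0.20 ± 0.12) and the genes of its partners, sec62 (-0.074 ± 0.092) and sec63 (0.092 ± 0.096), did not pass. Their partner sec66 rose (0.47 ± 0.10), as did the signal recognition particle gene sec65 (0.30 ± 0.11), the dolichol kinase gene sec59 (0.29 ± 0.10) and the signal peptidase gene sec11 (0.27 ± 0.091), the last 3 with calls lost in 7 or 8 of 17 other settings. Outside the naming pattern, the channel genes sss1 (0.41 ± 0.096) and sbh1 (0.32 ± 0.098) rose. The genes with other roles, vps71 (0.88 ± 0.13) and aps1 (0.43 ± 0.11, lost in 2 of 17 other settings), rose, and trs1 (-0.49 ± 0.10) fell. In the gene order of assembly ASM294v3, sec13 and vps20 were the only members that are neighbours among protein-coding genes, and they moved in opposite directions.

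At least 2-fold rises numbered 4 (vps1302, sec39, trs130 and vps26) of the 95 members above background on all arrays, against 8.34% of all probe sets. For trs31 only the bound given above holds. At least 2-fold falls numbered 2 (sec31 and vps5), against 4.56% of all. Each share of members lay below that of the whole array.

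In fkh2-S2A most members did not pass the test. Of the 96, 25 rose (26.0%), against 23.5% of all probe sets, and 7 fell (7.29%), against 9.84% of all. The shares were thus near those over all tested probe sets. Over the 95 members above background on all arrays, 24 rose and 7 fell. The median change was 0.034 for the members and 0.041 for all probe sets, and 0 of 96 members changed at least 2-fold (limma; 44 had an unadjusted p below 0.05), against 1.43% of all. The split depended on scaling, and with median centring it was 21 higher and 16 lower. It was 16 and 12 with quantile normalization over all deposited probe sets and 15 and 15 with that over the tested ones. Over all 2936 tested probe sets the split moved as well, from 689 higher and 289 lower as fitted. In the same order of settings it was 560 and 498, 526 and 374, and 442 and 422. Without wild-type replicate 2 both counts were far lower, for the members and over all tested probe sets. Falls were also fewer in both without fkh2-S2A replicate 1. Of the 32 calls 10 held under all 17 other settings. The comparison used the same wild-type arrays as that of fkh2delta.

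The members that rose most in fkh2-S2A came from several roles. The lipid transfer gene vps1302 had 9.87 and 9.65 in fkh2-S2A and 8.80 and 8.77 in wild type, a change of 0.97 ± 0.11 (adjusted p = 0.00108). The Arf exchange factor gene sec71 had 10.81 and 10.72 in fkh2-S2A and 9.74 and 9.84 in wild type (0.97 ± 0.11, adjusted p = 0.00117). In neither gene did the groups overlap. The retromer sorting nexin gene vps17 had 10.38 and 10.44 in fkh2-S2A and 9.62 and 9.29 in wild type (0.96 ± 0.12, adjusted p = 0.0016). For trs130 of TRAPPII the values were 9.57 and 9.67 in fkh2-S2A and 8.83 and 8.50 in wild type (0.96 ± 0.13, adjusted p = 0.00215), and these groups did not overlap either. The ER exit site scaffold gene sec16 had 7.86 and 8.11 in fkh2-S2A and 7.17 and 7.18 in wild type (0.81 ± 0.12, adjusted p = 0.00286).

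Gene length moved with this comparison. Over the 96 members Spearman's rho between change and gene length was 0.36 for fkh2-S2A against wild type, -0.068 for fkh2delta against wild type and 0.43 for fkh2-S2A against fkh2delta, as a description across genes on shared arrays. Over the 2917 tested probe sets with a gene length, rho was 0.24, -0.065 and 0.27 in the same order. The 25 members that rose in fkh2-S2A had a median gene length of 3220 bp, against 1482 bp for the 7 that fell and 1819 bp for the 64 that did not pass. Of 8 members longer than 5000 bp, a limit chosen after the values were seen, 7 rose in fkh2-S2A, with a median change of 0.71 over the 8, and sec31 (-0.20 ± 0.17) did not pass. In fkh2delta 7 of these 8 rose as well, with a median of 0.73, and sec31 fell. The share that rose among all probe sets of that length was not computed. The other 88 members had medians of -0.0020 in fkh2-S2A and 0.29 in fkh2delta. Across all tested probe sets each array's deviation also had a slope with length, of 0.070 and 0.11 per doubling in fkh2-S2A and -0.074 and -0.061 in fkh2delta, against -0.034 and -0.0095 in wild type. With this slope removed from fkh2-S2A against wild type, 19 of the 25 rises and 5 of the 7 falls remained, and 6 of the 8 longest members still rose, with vps1302 at 0.72, sec71 at 0.80, trs130 at 0.77 and sec16 at 0.61.

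**Figure D4:**
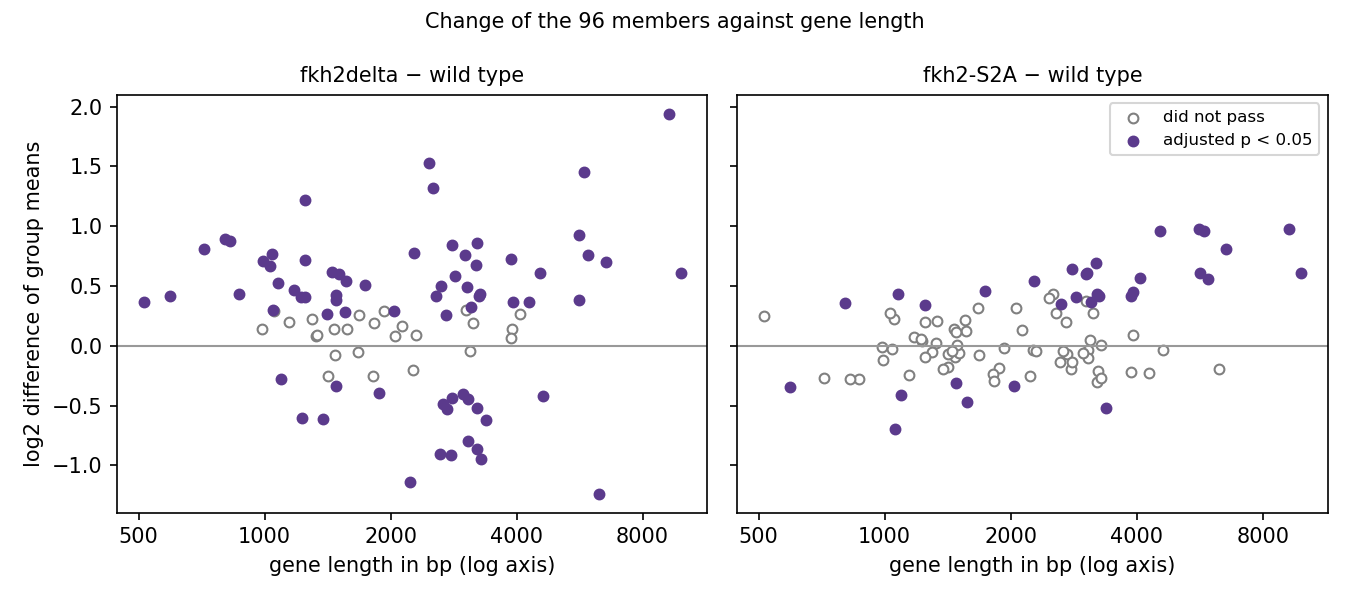
Log2 difference between group means (y axis) of the 96 members against gene length in bp (x axis, log scale), for fkh2delta minus wild type on the left and fkh2-S2A minus wild type on the right; filled points had an adjusted p below 0.05. In both panels 7 of the 8 members longer than 5000 bp lie above 0 as filled points, and the median of the other 88 is 0.29 on the left and -0.0020 on the right.

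By role, all 4 exocyst members rose in fkh2-S2A: sec10 (0.60 ± 0.12), sec8 (0.55 ± 0.16), sec15 (0.42 ± 0.11) and sec6 (0.41 ± 0.11). This count was 0 of 4 without wild-type replicate 2, 1 of 4 without fkh2-S2A replicate 2 and 2 of 4 with either quantile normalization. The HOPS gene vps41 had 9.21 and 8.86 in fkh2-S2A and 8.38 and 8.31 in wild type, with the fkh2-S2A arrays further apart than those of wild type (0.69 ± 0.12, adjusted p = 0.00464), and its partner vps33 rose too (0.54 ± 0.12), both calls being lost without wild-type replicate 2. The GARP gene vps53 had 9.77 and 9.65 in fkh2-S2A and 9.06 and 9.07 in wild type (0.65 ± 0.096, adjusted p = 0.00261), and vps51 rose by less (0.36 ± 0.095, lost in 5 of 17 other settings). In retromer vps35 rose (0.61 ± 0.10) with vps17, while vps5 (-0.25 ± 0.12), vps26 (0.43 ± 0.15) and vps29 (-0.029 ± 0.092) did not pass.

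Other rises were the Arf exchange factor gene sec72 (0.61 ± 0.10), vps1301 (0.61 ± 0.11), the adaptor genes apl5 (0.57 ± 0.11), apl3 (0.43 ± 0.12) and apl2 (0.37 ± 0.12), the ESCRT genes vps4 (0.46 ± 0.12) and vps20 (0.44 ± 0.092), sec1 (0.45 ± 0.13), vps901 (0.41 ± 0.12) and vps1 (0.35 ± 0.11). The calls of apl2 and vps1 were lost in 12 and 10 of 17 other settings. Those of apl3 and vps901 were lost in 6, of sec1 in 5, of vps20 in 3, of vps4 in 2 and of apl5 in 1. The 25 calls also hold trs31, which read below background in both groups, so that no rise of it was measured. None of the COPII coat genes sec13, sec24, sec31, sec231 and sec2302 passed in fkh2-S2A, with changes from -0.20 to 0.042, nor did any of the 4 COPI members, with changes from -0.21 to 0.27.

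The deepest fall in fkh2-S2A was bet1, for a SNARE of ER-to-Golgi traffic. Its signal was 9.26 and 9.57 in fkh2-S2A and 10.02 and 10.20 in wild type, so the groups did not overlap (-0.70 ± 0.14, adjusted p = 0.0068). The Rab gene ypt4 (-0.47 ± 0.10), sec74 (-0.52 ± 0.14), sft2 (-0.41 ± 0.10), sft1 (-0.34 ± 0.091), sec59 (-0.33 ± 0.10) and vps66 (-0.31 ± 0.099) also fell, with the sft1, sec59 and vps66 calls lost in 5, 8 and 9 of 17 other settings. Without wild-type replicate 2 the call of ypt4 alone was kept among these falls.

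The direct comparison of fkh2-S2A with fkh2delta set the mutants against each other. In fkh2-S2A 17 members were higher (17.7%), against 22.5% of all probe sets, and 32 were lower (33.3%), against 26.6% of all. The median change was -0.081 for the members and -0.019 for all probe sets. At least 2-fold changes were 1 higher, against 2.83% of all, and 3 lower, against 5.21% of all. Of the 49 calls, 31 held under all 17 other settings. Both counts were lower without fkh2delta replicate 2, for the members and over all probe sets. This comparison shares its arrays with the others.

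Most coat members were higher in fkh2-S2A than in fkh2delta. Of the 6 COPII members 5 were higher, under all 17 other settings as well, and sec16 did not pass (0.11 ± 0.12). The highest was sec31, with 9.14 and 9.35 in fkh2-S2A and 8.42 and 7.99 in fkh2delta, without overlap and with a difference of 1.04 ± 0.17 (adjusted p = 0.00118). Next came sec2302 (0.72 ± 0.099), sec13 (0.65 ± 0.11), sec231 (0.46 ± 0.095) and sec24 (0.41 ± 0.092). The COPI genes sec26 (0.69 ± 0.092), sec21 (0.65 ± 0.12) and sec27 (0.34 ± 0.091) were higher too, while sec28 was lower (-0.39 ± 0.11), the last pair with calls lost in 4 of 17 other settings. The NSF gene sec18 was higher by 0.77 ± 0.15.

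Retromer and GARP again split in this comparison. The retromer gene vps5 had 9.22 and 9.53 in fkh2-S2A and 8.51 and 8.47 in fkh2delta (0.89 ± 0.12, adjusted p = 0.000435), and vps17 was higher by less (0.35 ± 0.12, lost in 7 of 17 other settings). Against them, vps26 had 9.78 and 9.38 in fkh2-S2A and 10.35 and 10.59 in fkh2delta (-0.89 ± 0.15, adjusted p = 0.0013), and vps29 was lower as well (-0.79 ± 0.092). Of GARP, vps54 was higher (0.68 ± 0.12) and vps51 lower (-0.53 ± 0.095).

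The lowest member in fkh2-S2A relative to fkh2delta was vps71, the chromatin remodeller gene, with 8.71 and 8.45 in fkh2-S2A and 9.62 and 9.84 in fkh2delta (-1.15 ± 0.13, adjusted p = 0.000145). Among traffic genes the Dsl1 gene sec39 was lowest, with 8.99 and 8.53 in fkh2-S2A and 9.71 and 10.05 in fkh2delta (-1.13 ± 0.16, adjusted p = 0.000614). The TRAPP gene trs23 had 9.03 and 9.18 in fkh2-S2A and 10.19 and 10.19 in fkh2delta (-1.08 ± 0.098, adjusted p = 4.8e-05). All 3 genes were picked for the size of their called difference, so the gap between their groups is no separate support. Of the TRAPP genes trs20 (-0.71 ± 0.14), trs130 (-0.50 ± 0.13) and trs31, at least 1.54-fold lower since it was below background in fkh2-S2A (adjusted p = 0.000128), were lower too.

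The SNARE gene bet1 had 9.26 and 9.57 in fkh2-S2A and 10.54 and 10.27 in fkh2delta (-0.99 ± 0.14, adjusted p = 0.000515), and vps1302 had 9.87 and 9.65 in fkh2-S2A and 10.66 and 10.78 in fkh2delta (-0.96 ± 0.11, adjusted p = 0.000142). Both genes were thus lower in fkh2-S2A without overlap. The SNARE genes sft1 (-0.76 ± 0.091) and sec22 (-0.67 ± 0.12) were lower, as were the AP-2 gene aps2 (-0.83 ± 0.12), the ESCRT genes vps24 (-0.66 ± 0.14), vps28 (-0.52 ± 0.093) and vps32 (-0.35 ± 0.11) and the Rab genes ypt4 (-0.61 ± 0.10) and ypt71 (-0.50 ± 0.12). Further lower members were the ER genes sec59 (-0.62 ± 0.10), sec11 (-0.45 ± 0.091) and sec66 (-0.39 ± 0.10), the Arf exchange factor gene sec73 (-0.59 ± 0.13), sec17 (-0.41 ± 0.11), the adaptor genes aps3 (-0.48 ± 0.13), apl3 (-0.43 ± 0.12) and apm3 (-0.37 ± 0.11), vps55 (-0.44 ± 0.095), vps3 (-0.43 ± 0.15), ypt7 (-0.27 ± 0.10) and aps1 (-0.32 ± 0.11). Higher members not yet named were trs1 (0.44 ± 0.10), ypt5 (0.42 ± 0.093), vps10 (0.39 ± 0.12), apm1 (0.37 ± 0.12) and apl5 (0.30 ± 0.11). With the slope on gene length removed, the calls of sec27, sec28, vps10 and vps32 were among those lost. The calls of ypt7, vps3, apl5 and aps1 were lost in 12, 10, 8 and 7 of 17 other settings. Those of vps10 and vps32 were each lost in 4, and those of apm1, apm3 and aps3 in 3. Calls of apl3 and trs130 were each lost in 2, and those of sec17, sec66, trs1 and ypt5 in 1. None of the 4 exocyst members passed, with differences from -0.20 to 0.0029. Of members that passed as fitted or under the other setting, vps1301 alone changed direction. It had 0.0054 ± 0.11 as fitted and did not pass, and -0.37 with the slope on gene length removed, which passed. Members that passed in neither fit, such as sec16 (0.11 as fitted and -0.17 with the slope removed), could change sign as well.

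Traffic genes outside the naming pattern were read as a further list. Of 99 listed symbols 67 had a tested probe set. In fkh2delta 41 of them rose (61.2%, against 40.4% of all probe sets) and 10 fell (14.9%, against 23.6%), with a median of 0.41 beside 0.16 over all probe sets. The 4 with the largest change were krp1 (-1.16 ± 0.15), for the Golgi protease that processes precursors, cog3 (1.12 ± 0.11) and cog2 (1.11 ± 0.10), for subunits of the COG tether of the Golgi, and srp68 (1.01 ± 0.13), for a subunit of the signal recognition particle. In fkh2-S2A 14 rose (20.9%, against 23.5% of all) and 4 fell (5.97%, against 9.84%), with a median of 0.10 beside 0.041 over all probe sets, led by cog6 (0.70 ± 0.11), end4 (0.69 ± 0.11), cog3 (0.68 ± 0.11) and srp68 (0.67 ± 0.13). Between the mutants 5 were higher (7.46%, against 22.5% of all) and 26 lower (38.8%, against 26.6%) in fkh2-S2A, with a median of -0.23 beside -0.019 over all probe sets, led by cog2 (-1.31 ± 0.10), erv14 (-0.91 ± 0.098), gos1 (-0.85 ± 0.11) and ufe1 (-0.79 ± 0.11).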

How the data were processed

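The authors deposited log2 values, 1 for each probe set on each array. The base of the logarithm was inferred from the range, and the nearly equal quantiles of the arrays were read as normalization before deposit. How probes were summarised, corrected for background and normalized was not given in the sources used here. Values were used as deposited. Of 10928 probe sets 5538 were listed in the platform annotation, and 2936 of these matched S. pombe genes of RefSeq assembly ASM294v3 (names, gene order and length only; 3 by symbol, the rest by Entrez identifier). Background on each array was the 95th percentile over 2601 listed probe sets that match no S. pombe gene. A gene below it in 1 group got a bound: the brighter group's mean against the dim group's mean, with each dim array raised to its background level.

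One limma model (limma 3.58.1, R 4.3.3) over the 6 arrays had group as its sole term (3 residual and 5.73 prior degrees of freedom). P-values were two-sided and adjusted by Benjamini-Hochberg over 2936 probe sets. The steps were checked on simulated data with independent noise, few changed probe sets and no shift common to all. The data differ from that setting, with 1879 of 2936 probe sets called in fkh2delta against wild type, so the check does not cover it. The 17 alternatives covered scaling, dim probe sets, priors, samples, the replicate number, gene length and each array left out; quantile normalization over the tested probe sets was added after seeing the data. Full values go to the 8 called members with the largest change per comparison, other members being given by role. Outside this rule, sec16, sec18 and sec26 are also given in full for fkh2delta. Groups that do not overlap are thus no separate support for a member picked by its change. The members, roles and lists were chosen with earlier results of these data known. Precision is limited by having 2 arrays per group. Sequences were not used here, so a planned motif count in promoters was not run.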

Additional observations from a re-analysis of the deposited data

Results flagged for a closer look

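A pair of members moved in opposite directions in the mutants, each relative to the same wild-type arrays, and the mutants also differed in the direct test. The SNARE gene sft1 rose in fkh2delta (0.42 ± 0.091) and fell in fkh2-S2A (-0.34 ± 0.091), and was lower in fkh2-S2A than in fkh2delta (-0.76 ± 0.091, limma adjusted p = 0.0002). The dolichol kinase gene sec59 rose in fkh2delta (0.29 ± 0.10) and fell in fkh2-S2A (-0.33 ± 0.10), with a direct difference of -0.62 ± 0.10 (limma adjusted p = 0.00104). The direct difference of each gene kept its call in all 17 other settings, while the sec59 calls against wild type were lost in 7 (fkh2delta) and 8 (fkh2-S2A) of them. The rise of sft1 in fkh2delta was kept in all 17, but its fall in fkh2-S2A was lost in 5: with any 1 of the 4 arrays compared left out, and with the slope on gene length removed (-0.16, limma adjusted p = 0.201). Groups of 2 arrays are too small to look for outlying arrays.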

How the results depend on the processing

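For fkh2delta against wild type, the count of rises ran from 33 (without fkh2delta replicate 2) to 52 with 1 array left out, against 51, and median centring gave 5 falls of at least 2-fold, against 2. In fkh2-S2A, rises ran from 9 (without wild-type replicate 2) to 23 and falls from 1 (the same array) to 8 with 1 array left out, against 25 and 7. Quantile normalization over all deposited probe sets gave 16 rises and 12 falls of members, beside 374 falls over all tested probe sets. That over the tested ones gave 15 and 15, beside 422 falls, and median centring gave 16 falls, beside 498. Falls were 3 without fkh2-S2A replicate 1. Rises of at least 2-fold, 0 as reported, ran from 0 to 2 with 1 array left out. Between the mutants, 10 to 17 members were higher and 21 to 32 lower with 1 array left out, the lowest of both without fkh2delta replicate 2, against 17 and 32. At least 2-fold changes there ran from 0 to 3 higher and from 3 to 5 lower, against 1 and 3, and were 0 higher with the gene-length slope removed. The change of vps1301 reversed to -0.081 in fkh2delta (quantile normalization over the tested probe sets) and to -0.37 between the mutants (length slope removed); the cause was not tested. With the replicate number as a block, the counts were 45 higher and 19 lower in fkh2delta, 23 and 5 in fkh2-S2A and 15 and 30 between the mutants; the labels do not say that a number pairs arrays, and the differences between replicates correlated at -0.18 for fkh2delta with wild type, -0.085 for fkh2-S2A with wild type and -0.27 for fkh2-S2A with fkh2delta.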
